A study of Mus musculus with 6 samples.

Results

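The genes of retinoid storage and retinoic acid metabolism described here were measured in primary mouse hepatic stellate cells, the pericytes that hold most of the body's vitamin A, with and without forskolin, a plant compound that switches on adenylyl cyclase and so raises cAMP. They are Lrat, Stra6, Rdh10, Dhrs3, Aldh1a1, Aldh1a2, Cyp26b1, Rarb and Rxra. Members were picked by gene symbol, and all 9 have a row among the 24940 genes of the count table. Each row gives a single copy in the genome for its gene. The 6 RNA sequencing libraries came from stellate cells of wt (wild-type) female C57BL/6JBomTac mice that had been cultured for 2 days. For the last 3 h, 3 cultures (forskolin A, B and C) received 5 µM forskolin and 3 (DMSO A, B and C) the same volume of the solvent DMSO. Nothing in the labels says whether the replicates came from separate mice or isolations, so a p-value here reflects the spread among these 6 libraries alone, which could be technical. The age of the mice is not given in the sources used here.

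Stellate cells take up retinol, esterify it with LRAT and keep the esters in lipid droplets, and they lose this store as they turn into myofibroblasts, in culture as in fibrosis. Retinol that is not stored can be oxidised to retinal by RDH10, a step that DHRS3 reverses, and retinal is oxidised to retinoic acid by the ALDH1A enzymes. Retinoic acid binds retinoic acid receptors (RARs), which act on DNA together with retinoid X receptors (RXRs), and CYP26 enzymes destroy it.

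Depth, as the total count of a library, ran from 2770628.5 in forskolin C to 10607997 in forskolin B, and both C libraries were the shallowest of their group. A total of 3 counts, taken as the limit that a count of 0 allows, equals 0.279 to 1.17 CPM (counts per 1000000 counts of the library, with sizes scaled by the TMM method). Genes known to respond to cAMP checked the labels: Nr4a1, Crem, Sik1 and Pde4d rose by 3.44, 3.53, 4.14 and 3.07 on the log2 scale, each with an adjusted p of 6.01e-05 or less. Markers of stellate cells summed to 1651 to 1744 CPM in DMSO and 1825 to 1908 CPM with forskolin, and 2 of these 12 genes, Hgf and Hand2, were called higher (Lrat is also in this list); edgeR called none in the lists that follow. Summed markers of hepatocytes lay between 5.16 and 15.5 CPM over all libraries, those of sinusoidal endothelium between 6.71 and 14.4 CPM, those of Kupffer cells and macrophages between 13.02 and 22.2 CPM and those of cholangiocytes between 9.33 and 43.3 CPM. For lymphocytes, mesothelium and portal fibroblasts they stayed between 1.17 and 5.83 CPM. Marco, Krt7, Nkg7, Upk3b, Gpm6a, Thy1 and Mfap4 from these lists had no count in any library. In bulk RNA, fewer cells of a type and less RNA per cell cannot be told apart.

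The cultures held the transcripts of this pathway at very unequal levels. Per length of the listed transcript, Rxra stood highest in DMSO at 44.1 ± 2.91 CPM per kilobase (mean ± SD, n = 3). It was followed by Aldh1a1 at 17.2 ± 8.83, Rdh10 at 10.1 ± 0.851, Rarb at 4.70 ± 0.609 and Lrat at 1.85 ± 0.350 CPM per kilobase. Dhrs3 (0.631 ± 0.451), Aldh1a2 (0.501 ± 0.352) and Cyp26b1 (0.140 ± 0.124 CPM per kilobase) lay below, and Stra6 was at 0. The ranges over the DMSO libraries overlapped between Aldh1a1 and Rdh10 and between Dhrs3 and Aldh1a2, and Cyp26b1, with no count in DMSO C, reached down to the 0 of Stra6. The other neighbours in this order did not overlap. The place of Rarb is less sure, as 57.7% of its listed transcript is also exonic in Top2b, described below. With forskolin the order was the same except that Dhrs3, at 2.62 ± 1.59 CPM per kilobase, stood above Lrat at 1.24 ± 0.219 CPM per kilobase, with overlapping ranges.

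**Figure D1:**
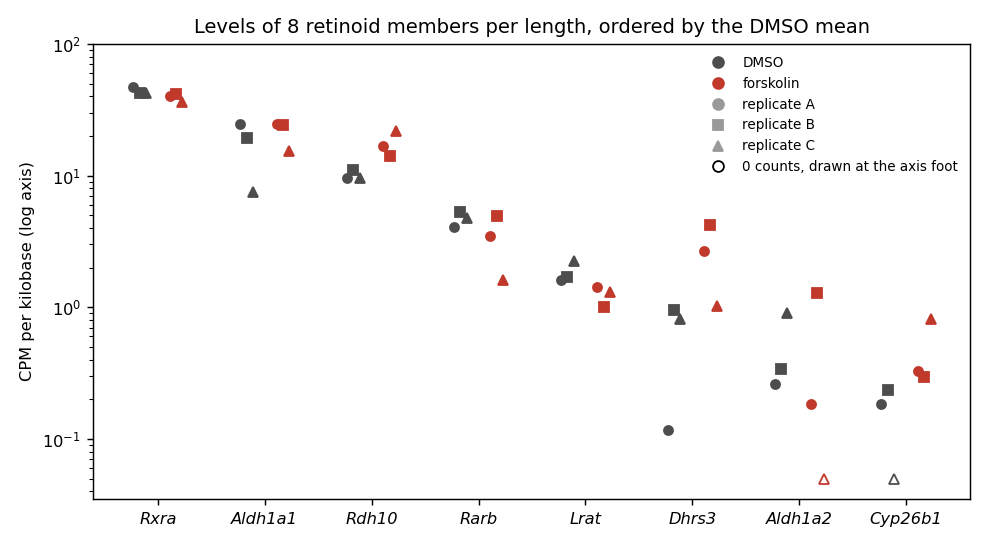
Levels of 8 members in CPM per kilobase of listed transcript (log axis) in each library, DMSO in grey and forskolin in red, with a symbol for each replicate letter. Open symbols at the foot of the axis are libraries with 0 counts; Rxra stood highest at 44.1 CPM per kilobase in DMSO and Cyp26b1 lowest at 0.140, and Stra6, with 0 counts in every library, is not drawn.

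The comparison asked which of these genes differ after 3 h of forskolin. With p-values from the edgeR quasi-likelihood test adjusted by Benjamini and Hochberg's method and a threshold of 0.05, 0 of the 9 members were called higher and 0 lower, while 2.22% of the 12233 genes tested were called higher and 0.572% lower. Of the members, 7 had enough counts to be tested, and Stra6 and Aldh1a2 did not. An unadjusted p under 0.05 was reached by 2 members, Rdh10 and Dhrs3, against 12.1% of all tested genes. Other tools called up to 2 members higher: DESeq2 called 1 (3.34% of all genes), the edgeR likelihood ratio test 1 (3.74%), limma-voom 0 (2.92%) and limma-voom with sample quality weights 2 (4.86%). Values of 3 members, Rdh10, Dhrs3 and Cyp26b1, were higher in every forskolin library than in every DMSO library. Such separation held for 10.7% of all tested genes. Cyp26b1 passed the filter on low counts only through its forskolin libraries, so its separation was fixed by that filter and adds no evidence. Lrat and Rxra were lower without overlap, as were 9.47% of all genes. Without both C libraries 1 member was called higher, where 5.86% of 12597 genes were, and 0 lower, against 3.9%.

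**Figure D2:**
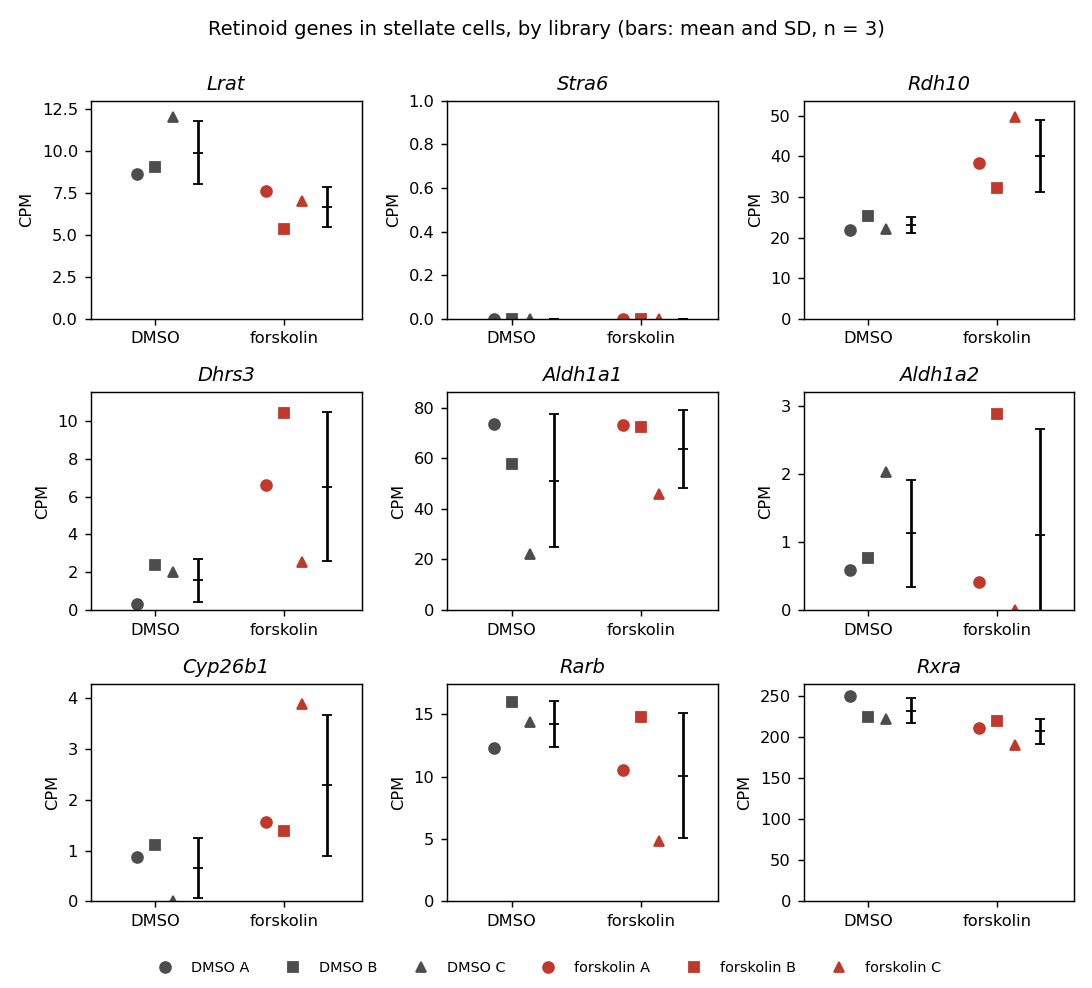
CPM of the 9 members in each library, with replicates A, B and C as circle, square and triangle and the mean and SD (n = 3) as bars beside them; each axis starts at 0. Rdh10, Dhrs3 and Cyp26b1 lie higher and Lrat and Rxra lower with forskolin without overlap, while Aldh1a1 is lowest in both C libraries. For Cyp26b1 the filter on low counts fixed this separation.

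Uptake and storage came first along the pathway. Stra6, the membrane receptor that takes retinol from its plasma carrier (mm10, chr9:58134075-58153997, plus strand), had 0 counts in all 6 libraries, which allows a level of up to 0.279 CPM in the deepest library. Lrat, the retinol esterifying enzyme (chr3:82892582-82903974, minus strand), had 8.61, 9.01 and 12.03 CPM in DMSO A, B and C and 7.61, 5.34 and 6.996 CPM in forskolin A, B and C. All forskolin values lay under all DMSO values, and DMSO C was the highest of all. The log2 fold change was −0.57 ± 0.37 (SE, approximate 95% interval −1.39 to 0.26, adjusted p = 0.647 by edgeR), an interval that holds both no change and a change larger than that of Rdh10. The Lrat row rested on 183.5 counts over the DMSO libraries and 148.5 over the forskolin libraries.

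Rdh10, the dehydrogenase that oxidises retinol to retinal (chr1:16105882-16132550, plus strand), had 21.9, 25.3 and 22.0 CPM in DMSO A, B and C. With forskolin it had 38.3, 32.3 and 49.7 CPM. The lowest forskolin value exceeded the highest DMSO value, and the DMSO libraries lay close together. Forskolin minus DMSO gave 0.77 ± 0.21 on the log2 scale (interval 0.30 to 1.25), with an unadjusted p of 0.00466 and an adjusted p = 0.114 by edgeR. That adjusted p passed with DESeq2 (0.0426), the likelihood ratio test (0.0206), limma-voom with sample quality weights (0.0379) and no filter on low counts (0.0382, where 2.47% of 18738 genes were called higher). It lay between 0.139 and 0.369 without any 1 library, and the change was 0.57 (adjusted p = 0.0645) without both C libraries.

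Dhrs3, the retinal reductase that opposes RDH10 and is itself a retinoic acid response gene (chr4:144893077-144928209, plus strand), was low in DMSO, at 0.292, 2.38 and 2.03 CPM in A, B and C. Forskolin A and B had 6.62 and 10.4 CPM, and forskolin C had 2.53 CPM. The groups were well apart in replicates A and B, while forskolin C lay barely above DMSO B. These values came from 2, 23.5 and 6 counts in DMSO and from 63.5, 112 and 6.5 counts with forskolin. Dhrs3 thus had a log2 fold change of 2.08 ± 0.80 (interval 0.29 to 3.86, adjusted p = 0.307 by edgeR). Without both C libraries it was 2.54 and was called (adjusted p = 0.0106); with sample quality weights it was 2.84 (adjusted p = 0.0490). Without any 1 library it ranged from 1.55 to 2.72, the latter without DMSO B, with adjusted p from 0.117 to 0.740 and no call. Summed cholangiocyte markers were also lowest in C among the forskolin libraries, at 43.3, 32.4 and 9.33 CPM in A, B and C against 20.1, 12.3 and 12.4 CPM in DMSO, where their highest library, A, had the lowest Dhrs3 value. Spp1 made up 34.1, 26.6 and 6.996 CPM of the forskolin sums and 15.7, 10.7 and 2.03 CPM of the DMSO sums. Sox9 had 5.21, 5.02 and 0 CPM in forskolin A, B and C and 0, 0.405 and 6.10 CPM in DMSO. Epcam had 21, 3 and 0 counts with forskolin and 6, 4 and 0 in DMSO. Krt19 went the other way, with its highest forskolin value in C (1.82, 0.558 and 2.33 CPM). Cftr had no count with forskolin. Krt7 was at 0, and the part of these markers in the Dhrs3 values was not tested.

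**Figure D3:**
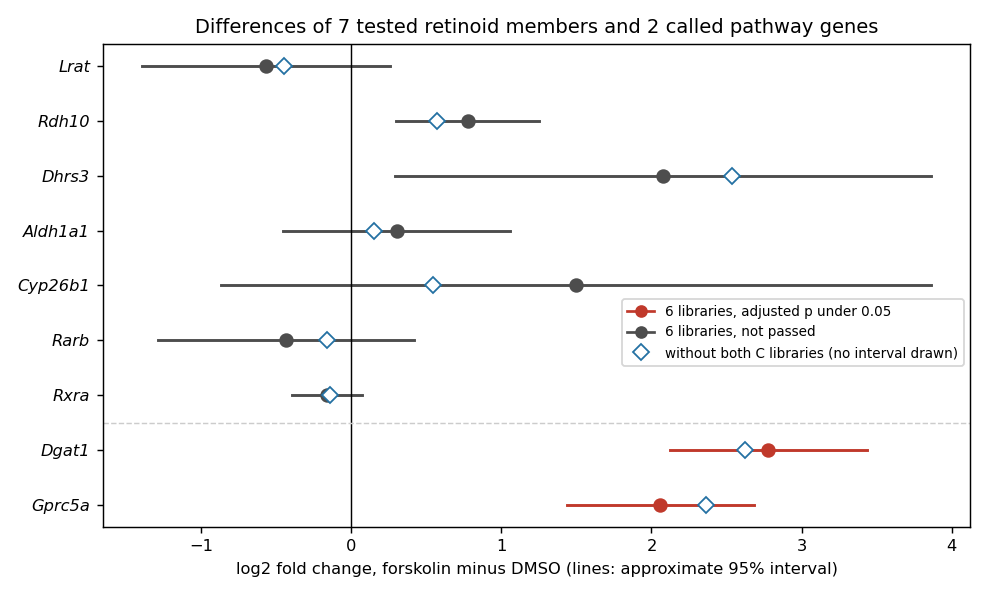
Fitted log2 fold change (forskolin minus DMSO) of 7 tested members and of Dgat1 and Gprc5a, with approximate 95% intervals from 6 libraries (filled circles) and the value without both C libraries (open diamonds). The intervals of Rdh10 (0.30 to 1.25) and Dhrs3 (0.29 to 3.86) lie above 0, though neither gene passed after adjustment over all genes, while Dgat1 and Gprc5a passed.

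Ratios of 2 members within a library do not depend on how that library is scaled. The level of Lrat per length was 0.168, 0.152 and 0.234 of the level of Rdh10 in DMSO A, B and C. With forskolin it was 0.0850, 0.0708 and 0.0602 of it, below every DMSO library. As Lrat was already lower and Rdh10 already higher without overlap, this separation had to follow and adds no evidence. On the log2 scale the ratio went from −2.46 ± 0.32 to −3.81 ± 0.25 (SD, n = 3 per group), a difference of −1.35 that ranged from −1.48 to −1.17 without any 1 library. Both genes had counts in every library, with 18 for Lrat in forskolin C as the smallest. With 3 against 3 libraries an exact two-sided test cannot give a p under 0.1, and the pair was formed from members with known differences, so no test was made. The ratio of Rdh10 to Dhrs3 per length was 81.5, 11.6 and 11.8 in DMSO and 6.29, 3.37 and 21.4 with forskolin, and the groups overlapped because of forskolin C.

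**Figure D4:**
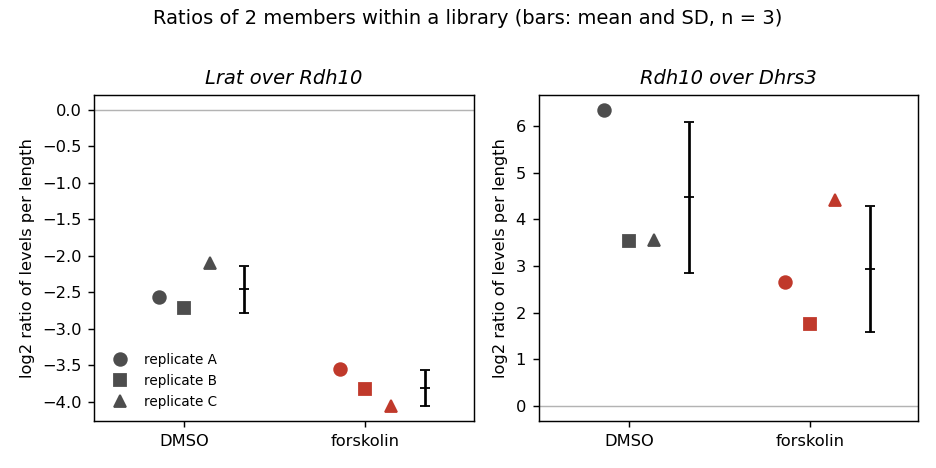
Log2 ratio of the levels per length of Lrat to Rdh10 and of Rdh10 to Dhrs3 in each library, with mean and SD (n = 3). The Lrat to Rdh10 ratio averages −2.46 in DMSO and −3.81 with forskolin without overlap, and the Rdh10 to Dhrs3 ratio overlaps between the groups.

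Of the retinal dehydrogenase genes, Aldh1a1 (chr19:20492583-20643463, plus strand) had the highest level per length. It had 73.6, 57.8 and 22.4 CPM in DMSO A, B and C and 73.2, 72.3 and 45.9 CPM in forskolin A, B and C. The groups overlapped, and the C library was the lowest in each. The log2 fold change was 0.30 ± 0.34 (interval −0.45 to 1.06, adjusted p = 0.853). Without DMSO C it was −0.014, and without DMSO A it was 0.63. Aldh1a7, a close paralog beside Aldh1a1 on chromosome 19, had 2.5 counts in all libraries together. Aldh1a2, the retinal dehydrogenase of embryonic and mesothelial cells (chr9:71215789-71296243, plus strand), had 4, 7.5 and 6 counts in DMSO A, B and C and 4, 31 and 0 counts in forskolin A, B and C. It was too low to be tested, and 31 of its 35 forskolin counts came from forskolin B, where summed mesothelial markers were at 3.35 CPM, within their DMSO range of 2.79 to 5.42 CPM. Of these markers Wt1, a transcription factor gene too low to be tested, was highest in forskolin B. It had 5, 9.5 and 0 counts in DMSO A, B and C and 15, 30 and 3 with forskolin. Its CPM were higher in every forskolin than in every DMSO library, which held for 10.7% of tested genes, a set without Wt1. The separation rested on forskolin C, at 1.17 CPM from 3 counts, against 0.962 CPM in DMSO B. Krt19 was lowest in forskolin B, at 0.558 CPM, and Msln, Upk1b, Lrrn4, Upk3b and Gpm6a had 0 counts there. The part of mesothelial markers in the Aldh1a2 counts was not tested. Aldh1a1 exceeded Aldh1a2 per length by 95.4, 57.6 and 8.32 times in DMSO and by 133 and 19.0 times in forskolin A and B. In forskolin C, where Aldh1a2 had no count, it was at least 29.8-fold higher against the limit of 3 counts.

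Breakdown of retinoic acid was barely covered. Cyp26b1, a retinoic acid hydroxylase (chr6:84571414-84593810, minus strand), had 6, 11 and 0 counts in DMSO A, B and C, or 0.875, 1.11 and 0 CPM. With forskolin it had 15, 15 and 10 counts, or 1.56, 1.39 and 3.89 CPM. The forskolin values all lay above the DMSO values, but only the forskolin libraries brought the gene past the filter on low counts. The separation therefore had to follow from its being tested. The log2 fold change was 1.497 ± 1.06 (interval −0.87 to 3.86, adjusted p = 0.690 by edgeR), and 0.55 without both C libraries. Cyp26a1, the hydroxylase most induced by retinoic acid in liver, is named after its values were seen: it had 3 counts, all in DMSO A.

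The receptors showed no called change either. Rarb, a retinoic acid receptor gene (chr14:16430840-16575476, minus strand), had 12.3, 16.0 and 14.4 CPM in DMSO A, B and C and 10.6, 14.8 and 4.86 CPM with forskolin. The groups overlapped, and forskolin C was far below the rest. Rarb differed by −0.43 ± 0.38 on the log2 scale (interval −1.29 to 0.42, adjusted p = 0.782), and −0.16 without both C libraries. Of the 3108 bases that GENCODE M21 gives the listed Rarb transcript, 57.7% are also exonic in Top2b on the opposite strand, and the exons of the gene share 227 bases with Gm48162 there. The library kit does not mark strand, so Rarb reads there cannot be told apart from those of Top2b, which stood at 261 ± 7.75 CPM without and 230 ± 31.6 CPM after forskolin (difference −0.18 ± 0.12 on the log2 scale, adjusted p = 0.652). Rxra, the common partner of RARs and of many other nuclear receptors (chr2:27677201-27763319, plus strand), was the best covered member, with 249, 225 and 221 CPM in DMSO and 211, 219 and 190 CPM with forskolin. The forskolin values lay just under the DMSO values. Its log2 fold change of −0.16 ± 0.11 had the narrowest interval, −0.40 to 0.07 (adjusted p = 0.647). The other 8 members share no exonic base with another gene in that annotation.

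Rarb is known for a retinoic acid response element in its promoter, through which retinoic acid raises the gene. The element is a direct repeat, and a search on either strand took each repeat unit as AGGTCA, or the form AGTTCA, or the form GGGTCA, or the form GGTTCA, with 5 bases between 2 units. It was found from −53 to −37 relative to the Rarb start, in capitals in the 300 bases shown (RefSeq, GRCm38.p6, chr14:16575427-16575726, minus strand), shown because Rarb expression is often read as a sign of retinoic acid.
Rarb promoter: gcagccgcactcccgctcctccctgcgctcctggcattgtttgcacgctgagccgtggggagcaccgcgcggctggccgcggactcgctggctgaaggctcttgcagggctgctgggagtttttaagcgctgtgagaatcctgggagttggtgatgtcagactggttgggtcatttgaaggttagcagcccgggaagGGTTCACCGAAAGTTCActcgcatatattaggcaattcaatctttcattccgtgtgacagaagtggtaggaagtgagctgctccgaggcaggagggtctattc
Such a repeat was in 0.0975% of 32817 promoter windows of 300 bases. RefSeq windows were found for 8 members, 15 windows in all, and Rarb had the only match among them. The search included the units and spacing of this known Rarb element, so its match was fixed in advance. The cAMP response element TGACGTCA (1.79% of all windows) and its shorter core TGACG, which the full element also holds (20.8% of all windows), had no match in the 15 windows, while of the cAMP check genes with a window, Nr4a1 held the core 4 times and Pde4d held neither. A missing match says only that these letters are not in these windows. Rdh10 had no entry.

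Other genes of the pathway were read from a list of 80 genes, members included, that was drawn up with earlier results of these data known. Of 50 tested, 3 rose, 0 fell and 47 did not pass by edgeR, with 12 at an unadjusted p under 0.05. Over all tested genes 2.22% were called higher, 0.572% lower and 12.1% had such an unadjusted p. DESeq2 and limma-voom called 0 lower as well. The list's median log2 fold change was 0.06, beside 0.0050 over all tested genes. Of the listed genes, 9 had no count in any library. None of the genes that rose is a member. Dgat1 and Gprc5a, described next, were among them and were called under all 17 alternatives tried for each.

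Dgat1 encodes an acyltransferase known for triglyceride synthesis that can also esterify retinol. It had 9.19, 20.2 and 8.30 CPM in DMSO A, B and C and 95.5, 93.7 and 82.8 CPM with forskolin. The groups were far apart in every replicate. Dgat1 rose by 2.78 ± 0.30 on the log2 scale (adjusted p = 4.60e-04), and the gene lies on chromosome 15 from 76502012 to 76511994 (mm10, minus strand). By the edgeR quasi-likelihood test Dgat1 was the only call among 7 tested genes of ester synthesis and hydrolysis, Lrat included. Plin2, a lipid droplet coat protein, averaged 294 ± 16.7 CPM without forskolin and 298 ± 25.0 CPM with it (SD, n = 3). The lipase gene Pnpla2 was at 90.6 ± 3.91 and 86.8 ± 29.1 CPM.

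Gprc5a, an orphan receptor gene first found as induced by retinoic acid, had 6.34, 7.90 and 12.5 CPM in DMSO and 40.2, 34.6 and 32.5 CPM with forskolin. It rose by 2.06 ± 0.28 on the log2 scale (adjusted p = 0.00240). By the same test it was the only call among 12 tested response genes, a list that also holds Dhrs3, Cyp26b1 and Rarb. Tgm2, tissue transglutaminase, was at 344 ± 32.3 and 443 ± 50.2 CPM (log2 fold change 0.37 ± 0.13, adjusted p = 0.260), and passed under 3 of 17 alternatives, with adjusted p from 0.00147 to 0.665. Nrip1, a ligand-dependent corepressor, was at 72.5 ± 15.5 and 119 ± 14.2 CPM (0.70 ± 0.17, adjusted p = 0.0613). Nrip1 passed under 7 of 17 alternatives, with adjusted p from 3.40e-04 to 0.261.

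By the edgeR quasi-likelihood test none of 5 tested nuclear receptor genes passed. Rara, a retinoic acid receptor gene named after its values were seen, had a log2 fold change of 0.44 ± 0.19 (adjusted p = 0.382) and was called with sample quality weights, without forskolin C and without both C libraries. The coactivator gene Crebbp was at 306 ± 36.1 and 252 ± 19.3 CPM (−0.27 ± 0.12, adjusted p = 0.406). Rarg was at 64.2 ± 12.6 and 56.7 ± 6.12 CPM (−0.17 ± 0.17, adjusted p = 0.826).

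**Figure D5:**
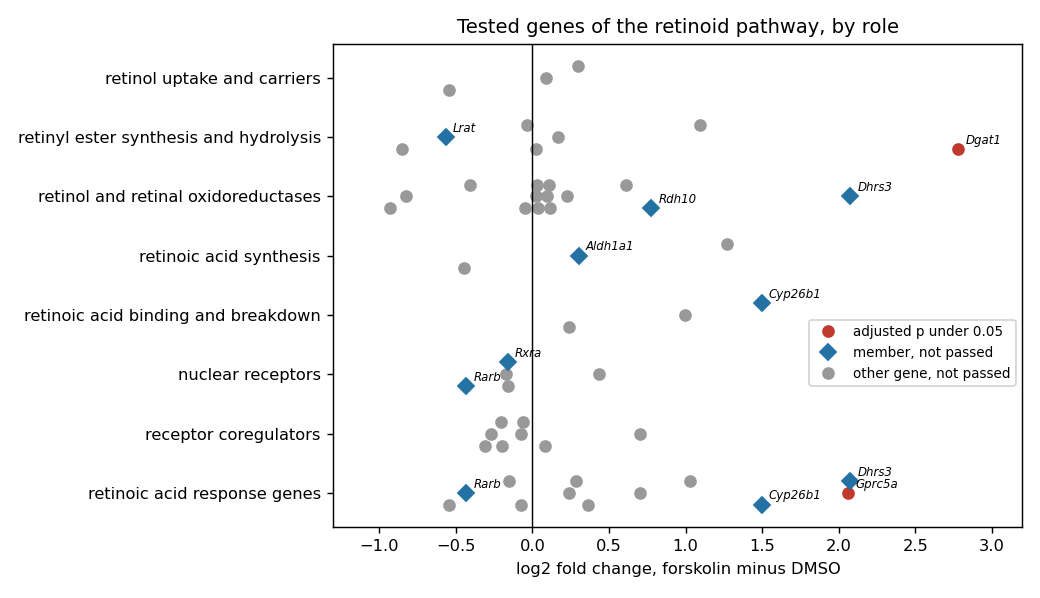
Log2 fold change (forskolin minus DMSO) of the tested pathway genes by role, with called genes in red, members that did not pass as blue diamonds and other genes in grey; a gene with several roles is drawn in each. Dgat1 (2.78) and Gprc5a (2.06) are the called genes drawn, and most others lie near 0.

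The edgeR quasi-likelihood test made no call among 14 tested oxidoreductases of retinol and retinal, where other settings called Rdh10, Dhrs3 and Bco1, or among 3 tested enzymes of retinoic acid synthesis, where Aldh1a3 was called without both C libraries. Of the enzymes that feed retinal and retinoic acid, Bco1, which cleaves beta-carotene to retinal, was well expressed at 255, 207 and 140 CPM in DMSO and 322, 326 and 273 CPM with forskolin. The groups did not overlap, and the log2 fold change of 0.61 ± 0.19 had an adjusted p = 0.170 by edgeR. Bco1 passed under 5 of 17 alternatives, with adjusted p from 4.10e-04 to 0.458. Akr1b8, an aldo-keto reductase, was at 169 ± 10.2 and 173 ± 12.5 CPM. Aldh1a3, another retinal dehydrogenase, had 3.57, 4.05 and 2.37 CPM in DMSO and 11.98, 9.39 and 2.33 CPM with forskolin. As for Dhrs3, forskolin A and B were high and forskolin C was not. Its log2 fold change was 1.27 ± 0.58 (adjusted p = 0.427), and it was called at 1.48 without both C libraries (adjusted p = 0.0200).

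That test also made no call among 3 tested genes of retinol uptake and 3 of retinoic acid binding and breakdown. Fabp5, a fatty acid-binding protein that can carry retinoic acid, had 11.6, 9.12 and 9.15 CPM in DMSO and 18.8, 16.4 and 25.7 CPM with forskolin. Its log2 fold change was 0.99 ± 0.29 (adjusted p = 0.132, but 0.0255 by the likelihood ratio test and 0.0419 with sample quality weights). Crabp2, which carries retinoic acid to RARs, was at 2.40 ± 1.15 and 2.97 ± 2.498 CPM. Scarb1, a receptor for lipoproteins and carotenoids, was at 156 ± 11.9 and 165 ± 15.0 CPM, and Lpl, lipoprotein lipase, at 62.6 ± 23.5 and 77.7 ± 13.3 CPM. Without both C libraries 9 pathway genes were called higher and 1, the coactivator gene Ncoa3, lower. Over all genes 5.86% were called higher there and 3.9% lower.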

How the data were processed

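The authors deposited a count table of 24940 genes (RefSeq transcript, mm10 coordinates, length). The submitters' processing notes name STAR, HOMER and mm10; they give no version, and no source used here states the counting rule. The deposited expected counts come in steps of 0.5 and were rounded to whole numbers for tests. Genes kept by filterByExpr (12233) were compared with edgeR 4.0.16 in R 4.3.3 (TMM, robust quasi-likelihood F test, Benjamini-Hochberg adjustment over all tested genes, threshold 0.05); CPM are unrounded counts over TMM-scaled library sizes. SEs are the absolute log2 fold change over the square root of F, and intervals use them. The test was checked on simulated data. Alternatives used DESeq2 1.42.0, limma 3.58.1, other scalings, filters and libraries, and a replicate block. The limit of 3 counts covers counting error only, as PCR copies of a molecule were not marked.

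The members and gene lists were chosen with earlier results of these data known. Named pathway genes were all those called, except 1 that is not reported here or drawn, and, in each role, the 2 of highest level per length; Nr4a1, Crem, Sik1 and Pde4d served as the check. Aldh1a7, Cyp26a1, Top2b, Rara, Wt1 and Ncoa3 were named after their values were seen. The edgeR quasi-likelihood test called no member, so no genes of like pattern were named. 0 library columns lacked a sample.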

Additional observations from a re-analysis of the deposited data

How the results depend on the processing

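Of 458 gene and setting combinations over 27 named genes, 415 kept their direction and their side of the threshold, 24 passed where the 6-library fit did not, 0 lost a call and 19 changed sign; the cause was not tested. The count of members called higher, 0 in the 6-library fit, was 1 with no filter, 1 by DESeq2, 1 by the likelihood ratio test, 2 with sample quality weights and 1 without both C libraries. The count of pathway genes called higher was 3 in that fit, where 2.22% of all tested genes were. It was 6 with no filter (2.47% of all genes), 5 by DESeq2 (3.34%) and 7 by the likelihood ratio test (3.74%). It was 10 with sample quality weights (4.86%), 6 with the replicate letter as a block (455 of 12233 genes) and 9 without both C libraries (5.86%). Pathway genes called lower went from 0 to 1 without both C libraries, where 3.9% of all genes were. Leaving out each library in turn gave 0 members and 3 to 4 pathway genes higher, and 0 lower in both. The block called 0 members. Over all 12233 tested genes it called 455 higher and 194 lower, against 272 and 70 in the 6-library fit. The labels do not say whether the letters pair the libraries. Deviations of same-letter libraries correlated at 0.0476 (A), 0.133 (B) and 0.150 (C) across genes, and DMSO A correlated better with forskolin B (0.0844).

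Sign changes touched only genes without a call. Plin2 was at −0.0059 with upper quartile scaling, −0.017 with library sizes alone, −0.0044 with sample quality weights, −0.012 without both C libraries and −0.041 to 0.068 without 1 library. Pnpla2 was at 0.045 by limma-voom, 0.15 with sample quality weights, 0.19 without both C libraries and −0.23 to 0.19 without 1 library. Crabp2 was at −0.17 by limma-voom, −0.29 with sample quality weights, −0.59 without both C libraries and −0.60 to 0.71 without 1 library. Without 1 library, Akr1b8 ranged from −0.0038 to 0.094, Rarg from −0.28 to 0.0083 and Aldh1a1 from −0.014 to 0.63. Cyp26b1 could not be fitted in 1 of these settings, where the filter removed it. Depth limits Stra6, Aldh1a2, Cyp26b1 and Dhrs3, which had 3 counts or fewer in at least 1 library.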
